A study of Mus musculus with 4 samples.

Results

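The genes described here encode the PGC-1 coactivators and the factors that carry their signal to the mitochondrial genome. The set holds 10 genes of the 19030 listed in the expression table, chosen by name: *Ppargc1a*, *Ppargc1b*, *Pprc1*, *Esrra*, *Nrf1*, *Gabpa*, *Tfam*, *Tfb1m*, *Tfb2m* and *Polrmt*. Their RNA was measured in inguinal white adipose tissue (ingWAT) of C57BL/6 mice labelled as 3 months old and kept at 4°C. Control (Ctrl) mice carried *Oct3* fl/fl alleles, and cKO mice carried the same alleles with Adiponectin-Cre, which removes the norepinephrine transporter Oct3 (gene *Slc22a3*) from adipocytes. All cold-challenged mice were male according to the study's methods. Each genotype had 2 libraries. The Adiponectin promoter is active in brown as well as white fat, and the other cells of the tissue keep *Oct3*. The sources used here do not state how many mice went into a library, so p-values measure the spread between these libraries, which may be technical.

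PGC-1α, the product of *Ppargc1a*, does not bind DNA itself. It docks on nuclear receptors and other transcription factors and recruits the machinery that opens chromatin and starts transcription. In fat, β-adrenergic signaling in the cold raises *Ppargc1a* through cAMP and the CREB and ATF2 factors, and PGC-1α then drives thermogenic and mitochondrial genes. The coactivators work with ERRα (*Esrra*), NRF1 and GABPA on nuclear genes of the mitochondrion, among them *Tfam*, *Tfb1m* and *Tfb2m*. TFAM and TFB2M act with the RNA polymerase POLRMT on mitochondrial DNA, and TFB1M methylates mitochondrial ribosomal RNA.

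Transcript levels are given as FPKM, fragments per kilobase of transcript, scaled to a fixed number of mapped fragments, which can be compared between genes because it is scaled by length. Estimated depth was 17400000 to 18150000 reads per library. *Slc22a3* had 16.95 and 17.68 FPKM in Ctrl and 9.07 and 9.50 FPKM in cKO, a fall of both cKO libraries below both Ctrl libraries (log2 fold change -0.83 on log2(FPKM + 1), limma with Benjamini-Hochberg adjustment, adjusted p = 0.000439). The Ctrl libraries stood apart in skeletal muscle RNA. All 11 tested of 14 muscle markers were lower in cKO, with a summed level of 2525 and 1699 FPKM in Ctrl and 21.3 and 20.7 FPKM in cKO. *Ckm* had 332.74 and 210.07 FPKM in Ctrl and 0.56 and 0.35 FPKM in cKO, and *Acta1* had 493.11 and 321.28 FPKM in Ctrl and 2.0 and 1.31 FPKM in cKO. None of the 14 was at 0 in any library.

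Markers of fat and immune cells also moved with genotype. Counts here and for muscle are at an adjusted p under 0.05 in limma, where 12.0% of all genes tested were higher and 13.8% lower. Of 8 brown and beige adipocyte markers, 7 were higher in cKO (summed 1522 and 1802 FPKM in Ctrl, 4795 and 4052 FPKM in cKO). Of 8 white adipocyte markers, 5 were lower (30780 and 29340 FPKM in Ctrl, 22880 and 23110 FPKM in cKO). All 9 tested B and T cell markers were higher (240.3 and 269.7 FPKM in Ctrl, 379 and 439.9 FPKM in cKO). Of 8 macrophage and neutrophil markers, 3 were higher and 2 lower, and 3 of 5 endothelial markers were lower. No epithelial or keratinocyte marker reached the level tested (summed 0.63 to 0.90 FPKM), and *Krt5* or *Krt8* was at 0 in every library. Adipocyte markers were present in all libraries, as the tissue label states. In these tissue RNAs, fewer cells of a type and less RNA per cell cannot be told apart. The part of muscle, adipocyte or immune cell content in the results on the 10 genes was not tested.

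Each of the 10 genes was detected in all 4 libraries, and the coactivators *Ppargc1a* and *Ppargc1b* differed most between genotypes. *Ppargc1a*, *Ppargc1b*, *Esrra* and *Tfb2m* were higher in cKO at an adjusted p under 0.05, none was lower, and 6 were not called. Without Ctrl replicate 1, *Ppargc1a* and *Ppargc1b* were called, 2 of the 10, while the log2 fold changes of *Esrra* and *Tfb2m* were both 0.36. In that fit 2.84% of all 12624 genes tested were called higher. With all 4 libraries, 12.0% of the 12658 genes tested were called higher and 13.8% lower. At an unadjusted p under 0.05 in limma, 7 of the 10 were higher and 0 lower. That looser threshold passes more of all genes than the adjusted one, and the share was not worked out. Unadjusted counts here and below therefore cannot be set beside 12.0% and 13.8%. In all 10 genes both cKO libraries lay above both Ctrl libraries, which was so for 31.9% of all genes tested. The median log2 fold change was 0.25 over the 10 genes and -0.006 over all genes tested. Log2 fold changes are cKO against Ctrl on log2(FPKM + 1) throughout, a scale that understates the change of genes at low FPKM.

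**Figure D1:**
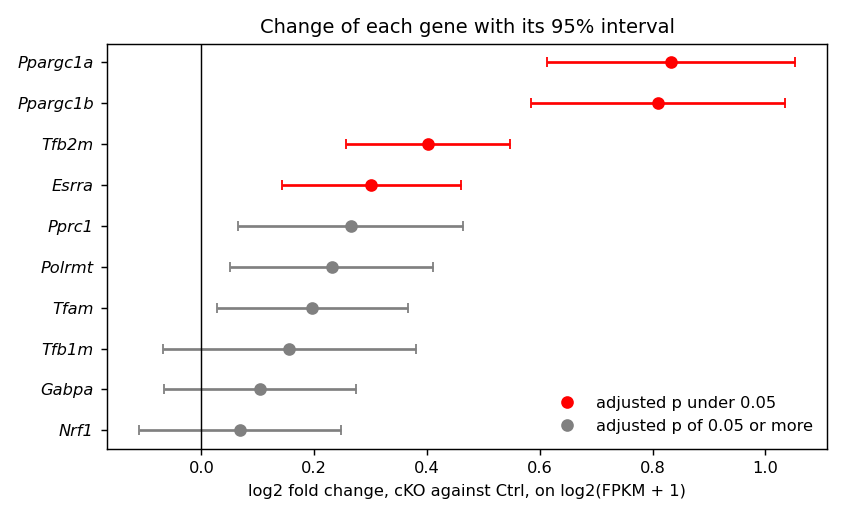
Log2 fold change of each of the 10 genes (cKO against Ctrl, on log2(FPKM + 1)), as the limma estimate with its 95% confidence interval, 2 libraries per genotype. The intervals of *Ppargc1a* (0.61 to 1.05) and *Ppargc1b* (0.58 to 1.03) lie to the right of the others, and those of *Nrf1*, *Gabpa* and *Tfb1m* include 0.

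Before the values, the DNA upstream of the genes is shown for the family's best known point of control, the cAMP-responsive start of *Ppargc1a*, and for sites of the pathway's own factors around the starts of its members. RefSeq start sites (GRCm38.p6, the same assembly as mm10) were available for 9 of the 10 genes. The 250 bases before 1 RefSeq start of *Ppargc1a*, chr5:51567726-51567975 on the minus strand, had 48.0% GC and held the core of the CREB site, TGACG, 1 time. It lies on the opposite strand, begins 49 bases before the start, and is in capitals.
Ppargc1a: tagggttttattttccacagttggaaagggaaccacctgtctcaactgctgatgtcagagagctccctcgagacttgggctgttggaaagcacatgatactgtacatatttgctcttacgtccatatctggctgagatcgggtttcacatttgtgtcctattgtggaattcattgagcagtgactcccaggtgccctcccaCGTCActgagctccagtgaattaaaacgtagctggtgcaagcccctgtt
The core TGACG, searched on both strands in windows from 250 bases before to 50 bases after a start, was in 20.8% of all 32851 RefSeq windows and, of the 9 genes, in *Ppargc1a* and *Tfb1m*. The full palindrome TGACGTCA, which contains the core, was in 1.79% of windows and in none of the 9.

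Sites for NRF1, GABPA and YY1 were found around the starts of 5 of the genes, and each is shown as 30 bases on the gene's strand with the motif in capitals. The NRF1 motif GCGCANGCG was in 6.25% of all windows and in those of *Esrra*, *Polrmt* and *Tfb2m*. *Polrmt* held it at 2 overlapping positions, of which the one further upstream is marked. The GABPA motif CCGGAAGT, in 3.89% of windows, was found at *Tfam*, 47 bases before the RefSeq start. That start lay 236 bases from the nearest GENCODE start of *Tfam*. The YY1 motif AAGATGGCG, in 1.40% of windows, was found at *Gabpa*. The ERR motif AAGGTCA, in 4.72% of windows, was in none of the 9. These are matches of letters in the mouse reference, and the data hold no measure of binding.
Esrra, chr19:6921930-6921959, minus strand, NRF1: acaggaggccGCGCACGCGtgtgtatcgac
Polrmt, chr10:79746567-79746596, minus strand, NRF1: ctgcaggcggCGCGTGCGCgtgcgcactgc
Tfb2m, chr1:179546245-179546274, minus strand, NRF1: ctaggtcgttCGCATGCGCcattcgtaatg
Tfam, chr10:71238073-71238102, minus strand, GABPA: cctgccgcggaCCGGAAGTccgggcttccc
Gabpa, chr16:84835046-84835075, plus strand, YY1: gctaagactcCGCCATCTTtcctacacttt
Of the genes holding the NRF1 motif, *Esrra* and *Tfb2m* were called higher in cKO and *Polrmt* was not, as described next. *Ppargc1a*, whose window held no NRF1 motif, was called higher too, and a link between motif and change was not tested.

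**Figure D2:**
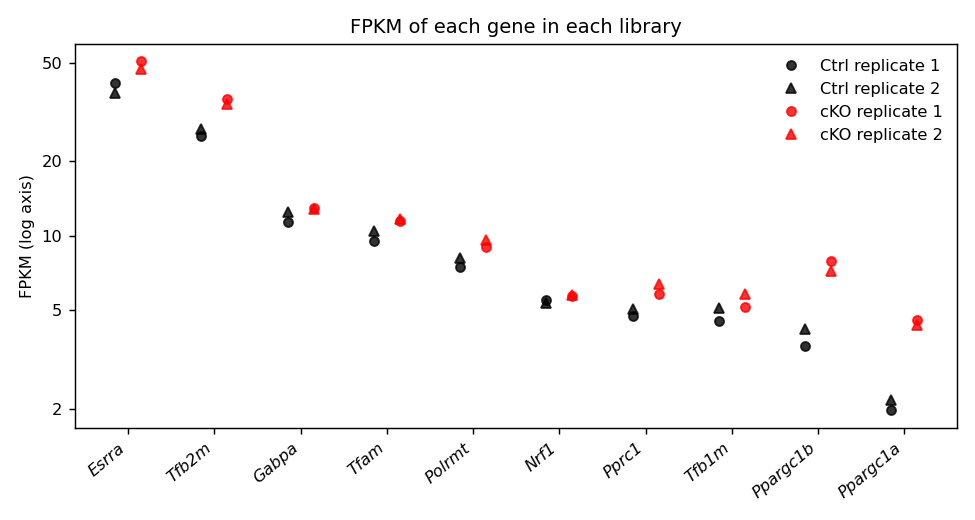
FPKM of the 10 genes in each of the 4 libraries (Ctrl and cKO, 2 libraries each) on a log axis. *Esrra* is the most abundant (37.90 to 50.65 FPKM) and *Ppargc1a* the least (1.97 to 4.56 FPKM), and the gap between genotypes is widest for *Ppargc1a* and *Ppargc1b*.

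The coactivators were read first. *Ppargc1a* had 1.97 and 2.16 FPKM in Ctrl and 4.56 and 4.35 FPKM in cKO. Both cKO libraries were above both Ctrl libraries, and the gap was many times the distance between replicates. The mean rose from 2.07 ± 0.134 to 4.46 ± 0.149 FPKM (SD, n = 2 each), 2.16-fold, with a log2 fold change of 0.83 ± 0.093 (SE; 95% interval 0.61 to 1.05; limma with Benjamini-Hochberg adjustment, adjusted p = 0.00133). *Ppargc1a* (Entrez 19017, chr5:51454249-52115853) is listed with 3 transcripts that were summed into 1 value, so its isoforms and starts were not told apart. Taking its longest transcript, an estimated 230 to 510 reads stood behind each value, and the counting error of the lowest was 6.59%. Shorter transcripts would make the reads fewer and that error larger.

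*Ppargc1b*, which encodes PGC-1β, the closest relative of PGC-1α and a strong partner of ERRα, had 3.57 and 4.20 FPKM in Ctrl and 7.89 and 7.21 FPKM in cKO. The genotypes did not overlap, and the rise was of nearly the same size as that of *Ppargc1a*. The mean went from 3.89 ± 0.446 to 7.55 ± 0.481 FPKM (SD, n = 2 each), 1.94-fold, with a log2 fold change of 0.81 ± 0.095 (SE; limma, adjusted p = 0.00156). The gene (Entrez 170826) lies at chr18:61291445-61400756.

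*Pprc1*, which encodes PRC, the family member known for its response to growth signals, had 4.73 and 5.05 FPKM in Ctrl and 5.79 and 6.37 FPKM in cKO. The libraries did not overlap, but the difference was a log2 fold change of 0.26 (95% interval 0.07 to 0.46) and was not called (limma, Benjamini-Hochberg adjusted p = 0.0589). It was called after median-of-ratios scaling of the libraries (adjusted p = 0.0382 in limma) and after quantile normalization (adjusted p = 0.0259 in limma). *Pprc1* (Entrez 226169, chr19:46056526-46072909) shares 177 of its 6284 exonic bases with *Ldb1* on the opposite strand, which had 40.98 to 48.41 FPKM. Reads there cannot be told apart, as the library protocol names no step that keeps strand.

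With these values the makeup of the family differed between genotypes. The 3 coactivators summed to 10.27 and 11.41 FPKM in Ctrl and to 18.24 and 17.93 FPKM in cKO. *Pprc1* made up 46.1% and 44.3% of that sum in Ctrl and was the most abundant of the 3. In cKO its share was 31.7% and 35.5%, and *Ppargc1b*, with 43.3% and 40.2%, came first. *Ppargc1b* had held 34.8% and 36.8% in Ctrl. *Ppargc1a* stayed the least abundant, with 19.2% and 18.9% in Ctrl and 25.0% and 24.3% in cKO. The ratio of *Ppargc1a* to *Ppargc1b* was 0.552 and 0.514 in Ctrl and 0.578 and 0.603 in cKO. For each of these shares and for the ratio the genotypes did not overlap, and an exact permutation test gave p = 0.333 (two-sided), the smallest value that 2 libraries against 2 allow.

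**Figure D3:**
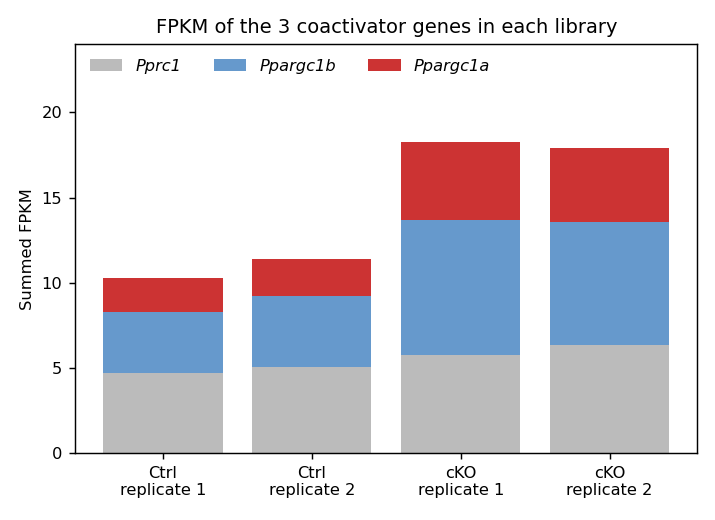
FPKM of *Ppargc1a*, *Ppargc1b* and *Pprc1* in each library, stacked to their summed FPKM. *Pprc1* holds the largest share in both Ctrl libraries (46.1% and 44.3%), and *Ppargc1b* in both cKO libraries (43.3% and 40.2%).

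Of the DNA-binding factors only *Esrra* was called. ERRα is an orphan nuclear receptor that is switched on by PGC-1 coactivators rather than by a known hormone. *Esrra* had 41.30 and 37.90 FPKM in Ctrl and 50.65 and 47.40 FPKM in cKO, with no overlap. The mean rose 1.24-fold, from 39.6 ± 2.40 to 49.0 ± 2.30 FPKM (SD, n = 2 each; log2 fold change 0.30 ± 0.067, SE; limma with Benjamini-Hochberg adjustment, adjusted p = 0.0169). The call was lost without Ctrl replicate 1 (log2 fold change 0.36, adjusted p = 0.0608 in limma), without Ctrl replicate 2 (0.24, adjusted p = 0.113) and without cKO replicate 1 (0.25, adjusted p = 0.0913). It was also lost with no filter on low values (log2 fold change 0.30, adjusted p = 0.0685 in limma). *Esrra* (Entrez 26379, chr19:6910977-6922048) shares 73 exonic bases with *Trmt112* and 91 with *Mir6990*, of 4387.

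*Nrf1*, which encodes nuclear respiratory factor 1, had 5.52 and 5.35 FPKM in Ctrl and 5.73 and 5.77 FPKM in cKO. The cKO libraries were the higher, but by little, with a log2 fold change of 0.07 (95% interval -0.11 to 0.25; limma, Benjamini-Hochberg adjusted p = 0.547). The interval leaves out a rise of the size seen for *Ppargc1a*. The gene (Entrez 18181, chr6:30047985-30153458) is listed with 6 transcripts summed into 1 value.

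*Gabpa* encodes the DNA-binding subunit of GABP, also called nuclear respiratory factor 2. It had 11.33 and 12.52 FPKM in Ctrl and 12.97 and 12.79 FPKM in cKO, a log2 fold change of 0.10 (95% interval -0.07 to 0.27) that was not called (limma, Benjamini-Hochberg adjusted p = 0.330). *Gabpa* (Entrez 14390, chr16:84834891-84863783) shares 397 of 5687 exonic bases with *Atp5j* on the opposite strand, an ATP synthase subunit gene with 257.35 and 251.23 FPKM in Ctrl and 197.09 and 209.12 FPKM in cKO. Reads in the shared stretch cannot be told apart. The neighbour was lower in cKO (log2 fold change -0.32).

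The mitochondrial factors differed unevenly. TFB2M opens the promoter DNA for POLRMT and is needed to start transcription, and *Tfb2m* was the only one of the 4 mitochondrial factors called. It had 25.40 and 27.00 FPKM in Ctrl and 35.75 and 34.11 FPKM in cKO. No library of one genotype came near the other, and the mean rose 1.33-fold, from 26.2 ± 1.13 to 34.9 ± 1.16 FPKM (SD, n = 2 each; log2 fold change 0.40 ± 0.062, SE; limma with Benjamini-Hochberg adjustment, adjusted p = 0.00424). Without Ctrl replicate 1 the log2 fold change was 0.36 and the call was lost (limma, adjusted p = 0.0576). The gene (Entrez 15278) lies at chr1:179528052-179546305, and an estimated 1112 to 1501 reads stood behind each value.

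TFB1M is the paralog of TFB2M that methylates the small ribosomal RNA of mitochondria. *Tfb1m* had 4.52 and 5.10 FPKM in Ctrl and 5.13 and 5.82 FPKM in cKO, so that the higher Ctrl and lower cKO libraries nearly met. Its log2 fold change was 0.16 (95% interval -0.07 to 0.38; limma, Benjamini-Hochberg adjusted p = 0.274). With an estimated 112 to 140 reads per library it was the least deeply covered of the 10 genes, with a counting error of 9.45% at the lowest value. *Tfb2m* stood at 5.62 and 5.29 times *Tfb1m* in Ctrl and at 6.97 and 5.86 times in cKO. *Tfb1m* (Entrez 224481, chr17:3519250-3557796) shares 142 of 3609 exonic bases with *Tiam2*, which had at most 1.13 FPKM.

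*Tfam* and *Polrmt* fell between these. TFAM coats and bends mitochondrial DNA, and *Tfam* (Entrez 21780, chr10:71225468-71238328) had 9.53 and 10.44 FPKM in Ctrl and 11.49 and 11.67 FPKM in cKO. The log2 fold change was 0.20 (95% interval 0.03 to 0.37) and was not called (limma, Benjamini-Hochberg adjusted p = 0.0880). *Polrmt*, the mitochondrial RNA polymerase (Entrez 216151, chr10:79736125-79746604), had 7.48 and 8.12 FPKM in Ctrl and 9.02 and 9.63 FPKM in cKO. Its log2 fold change was 0.23 (95% interval 0.05 to 0.41; limma, Benjamini-Hochberg adjusted p = 0.0658), and it was called after median-of-ratios scaling (adjusted p = 0.0447 in limma) and quantile normalization (0.0419). The table lists 0 mitochondrially encoded genes, so the RNA that POLRMT makes could not be read beside its factors.

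The order of the genes by mean FPKM was nearly the same in both genotypes. From high to low it ran *Esrra*, *Tfb2m*, *Gabpa*, *Tfam* and *Polrmt* in Ctrl and in cKO. In Ctrl these were followed by *Nrf1*, *Pprc1*, *Tfb1m*, *Ppargc1b* and *Ppargc1a*, and in cKO by *Ppargc1b*, *Pprc1*, *Nrf1*, *Tfb1m* and *Ppargc1a*. *Ppargc1b* thus moved from place 9 to place 6. The library ranges of neighbours overlapped only for *Pprc1* and *Tfb1m* in Ctrl and for *Nrf1* and *Tfb1m* in cKO, which therefore do not differ beyond their spread. *Esrra* stood at 21.0 and 17.5 times *Ppargc1a* in Ctrl and at 11.1 and 10.9 times in cKO, and at 11.6 and 9.02 times *Ppargc1b* in Ctrl and 6.42 and 6.57 times in cKO. *Ppargc1a* was 0.207 times *Tfam* in both Ctrl libraries and 0.397 and 0.373 times in cKO.

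When all 12657 other tested genes were ranked by how closely their 4 mean-centred log2(FPKM + 1) values followed those of *Ppargc1a*, the nearest were *Kctd1*, *S100a4*, *Lipa*, *Gmnn* and *Hpdl*, at Euclidean distances of 0.0601 to 0.0828. *Ppargc1b* was number 6, at 0.0834. Of the other members, *Tfb2m* was number 601, *Esrra* number 1237 and *Nrf1* number 4263. This ranking rests on 4 libraries that share the genotype contrast and is a description without a test.

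Genes of mitochondrial DNA maintenance and transcription outside the set were called higher at a share not far from that of all genes. Of 24 such genes outside the set, 2 were called higher (8.33%) and 0 lower, against 12.0% and 13.8% of all genes. At an unadjusted p under 0.05 in limma 6 were higher and 0 lower. The log2 fold change had a median of 0.10 and was positive in 19 of them and negative in 5. *Lonp1*, the matrix protease that degrades TFAM, had 55.83 and 58.02 FPKM in Ctrl and 85.03 and 76.26 FPKM in cKO (log2 fold change 0.49; limma, Benjamini-Hochberg adjusted p = 0.00283). *Lrpprc*, which stabilises mitochondrial mRNAs, had 16.18 and 18.27 FPKM in Ctrl and 25.02 and 23.09 FPKM in cKO (log2 fold change 0.46; limma, Benjamini-Hochberg adjusted p = 0.00614). *Slirp*, whose product binds LRPPRC, had 71.18 and 68.13 FPKM in Ctrl and 75.13 and 71.90 FPKM in cKO and was not called. *Hsd17b10*, a subunit of mitochondrial RNase P, had 119.48 and 115.71 FPKM in Ctrl and 108.67 and 109.87 FPKM in cKO and was not called. Counting the 4 members in it, the list had 3 of 28 called higher, and 0 without Ctrl replicate 1, where 2.84% of all genes were.

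Regulators and partners of the PGC-1 proteins were called higher at about the share of all genes. Of 38 outside the set 36 were tested (all but *Esrrb* and *Cited1*), 4 were called higher (11.1%, against 12.0% of all genes) and 2 lower (5.56%, against 13.8%), and the median log2 fold change was -0.02. *Ppara*, the fatty acid receptor that PGC-1α coactivates, had 7.04 and 9.60 FPKM in Ctrl and 19.35 and 16.81 FPKM in cKO (log2 fold change 1.04; limma, Benjamini-Hochberg adjusted p = 0.00206). *Perm1*, a muscle-enriched gene induced by PGC-1 and ERR, had 1.03 FPKM in both Ctrl libraries and 3.38 and 2.74 FPKM in cKO (log2 fold change 1.0; limma, Benjamini-Hochberg adjusted p = 0.00161). Its direction was opposite to that of the muscle markers, and the part of muscle content in its level was not tested. *Esrrg*, the ERRγ gene, had 0.75 and 1.19 FPKM in Ctrl and 2.14 and 2.04 FPKM in cKO, and *Mef2d* had 22.99 and 22.65 FPKM in Ctrl and 29.03 and 29.11 FPKM in cKO. Both were called higher (limma, Benjamini-Hochberg adjusted p = 0.0140 and 0.00571).

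The 2 partners that fell were *Rxra* and *Pparg*, whose products pair on DNA as the central receptor of adipocyte differentiation. *Rxra* had 42.53 and 39.77 FPKM in Ctrl and 31.43 and 32.67 FPKM in cKO (log2 fold change -0.35; limma, Benjamini-Hochberg adjusted p = 0.00689). *Pparg* had 140.65 and 143.44 FPKM in Ctrl and 116.28 and 122.57 FPKM in cKO (log2 fold change -0.25; limma, Benjamini-Hochberg adjusted p = 0.0196). Among the regulators not called, *Nfe2l1* had 118.34 and 120.05 FPKM in Ctrl and 120.30 and 118.51 FPKM in cKO, and *Mapk14*, the p38α kinase upstream of ATF2, had 41.97 and 41.22 FPKM in Ctrl and 39.98 and 41.99 FPKM in cKO. Both overlapped between genotypes. With the 6 members that the list also holds, 7 of 42 were called higher and 2 lower. With a library left out fewer were called higher, as was so over all genes, and the ranges are given in the closing section.

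Most of 30 listed nuclear genes known as targets of NRF1, GABPA or ERRα were higher in cKO. The list does not hold all known targets, and *Tfam*, *Tfb1m* and *Tfb2m* are not in it. Of the 30 listed genes, 27 were called higher (90.0%, against 12.0% of all genes) and 0 lower (against 13.8%). At an unadjusted p under 0.05 in limma the counts were also 27 and 0. The median log2 fold change was 0.49, against -0.006 over all genes. This list was written with earlier results of these data known, so its share is not independent of them. The summed level of the 30 genes was 9929 and 10830 FPKM in Ctrl and 15470 and 14290 FPKM in cKO. Without Ctrl replicate 1 the number called higher was 6 of 30, against 2.84% of all genes in that fit. Brown and beige markers rose and muscle markers fell in the same libraries, as given above.

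*Pdk4*, which shuts off pyruvate oxidation, had 80.20 and 108.06 FPKM in Ctrl and 309.98 and 280.30 FPKM in cKO (log2 fold change 1.65; limma, Benjamini-Hochberg adjusted p = 0.000442). *Cpt1b*, the muscle and brown fat form of the carnitine palmitoyltransferase, had 38.79 and 53.01 FPKM in Ctrl and 131.45 and 115.10 FPKM in cKO (log2 fold change 1.42). *Etfdh*, which feeds electrons from β-oxidation into the respiratory chain, had 108.52 and 130.95 FPKM in Ctrl and 213.84 and 199.81 FPKM in cKO (log2 fold change 0.79). In each of these genes both cKO libraries lay above both Ctrl libraries. The 3 that were not called were *Alas1*, the first enzyme of heme synthesis (74.94 and 71.30 FPKM in Ctrl, 67.57 and 66.00 FPKM in cKO), and the import receptor genes *Tomm20* (27.01 and 25.71 FPKM in Ctrl, 25.76 and 26.37 FPKM in cKO) and *Tomm70a* (24.78 and 26.11 FPKM in Ctrl, 25.52 and 27.44 FPKM in cKO). *Tomm70a* was named after its values were seen.

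**Figure D4:**
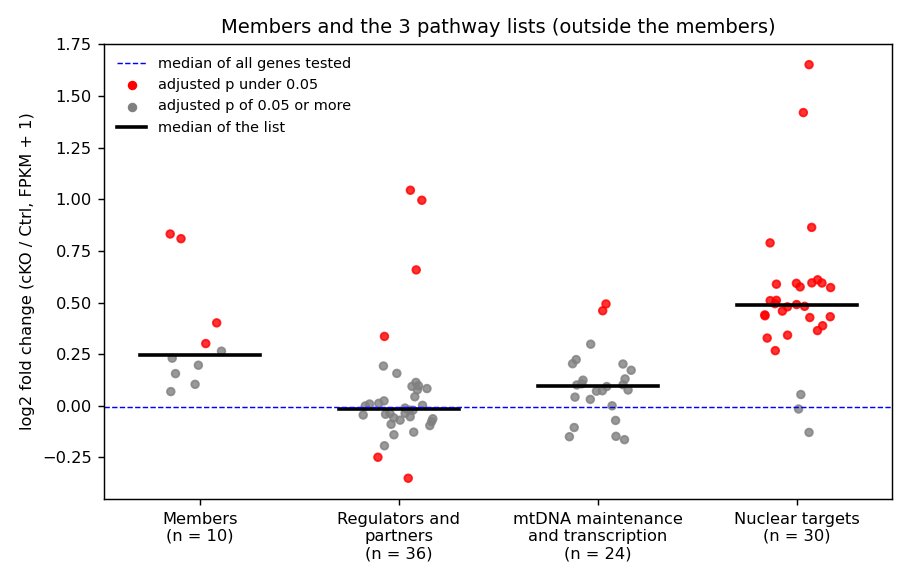
Log2 fold change (cKO against Ctrl, on log2(FPKM + 1)) of the 10 genes and of the genes of 3 pathway lists outside them, each point a gene, red where the adjusted p was under 0.05, with the median of each list as a bar and that of all genes tested as a dashed line. The medians are 0.25 for the 10 genes, -0.02 for regulators and partners, 0.10 for mitochondrial DNA maintenance and transcription, and 0.49 for nuclear targets.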

How the data were processed

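Poly(A) RNA of ingWAT was sequenced as single-end reads in 2 Ctrl and 2 cKO libraries. The authors deposited FPKM per gene and library, to 2 decimals, with no scaling between libraries stated. The submitters' processing notes name HISAT2 2.0.4, RSEM 1.2.12 and mm10 without their roles. Genes with a mean of at least 1 FPKM were compared between genotypes by limma 3.58.1 (R 4.3.3) on the scale log2(FPKM + 1). The fit used eBayes with trend, two-sided tests, Benjamini-Hochberg adjustment over 12658 genes and a threshold of 0.05. All adjusted p-values are of that fit unless another setting is named. The same steps were tried on data simulated with normal noise, which is no check on how these libraries vary. FPKM keep no read counts, so no count test was run. Depth was estimated from the FPKM steps of 305 short RNAs (length limit 400 bases, values of no more than 6 reads). Depth and a length offset of 36 bases were chosen so that most of the values used were whole within 0.1. That share was 85.2% to 91.2% per library and, being maximised, is no separate check of the depth. Reads were estimated with the longest matched transcript of a gene, and are upper estimates where shorter ones contribute. Counting errors given for estimated reads cover counting error only.

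Of 19030 gene IDs, 18977 matched a RefSeq table for GRCm38.p6, which, with GENCODE, gave positions and sequences. A further 24 symbols had turned into dates. *Twnk* is listed as *Peo1* and *Prorp* as *1110008L16Rik*. The members and all lists were chosen with earlier results of these data known. Named from each pathway list were the called genes with the 4 largest rises and 3 largest falls, and the 2 most abundant not called, the 5 genes nearest to *Ppargc1a*, the targeted gene and 2 muscle genes. A gene that this rule names among the nuclear targets is not reported here. Alternatives were another pseudocount (0.1), other filters, median-of-ratios scaling, quantile normalization, a replicate block, no trend and leaving out each library. Python 3.11.15 (pandas 2.3.3, numpy 2.4.6, scipy 1.17.1) was used for the other steps.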

Additional observations from a re-analysis of the deposited data

How the results depend on the processing

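Over 109 alternative values of the 10 genes, 0 changed direction, 100 kept their side of the threshold, 5 lost a call and 4 gained one. *Ppargc1a* ranged from 0.79 to 1.07 and *Ppargc1b* from 0.72 to 0.94 (log2), called in every alternative that tested them. With a mean of at least 5 FPKM required, *Ppargc1a* was not tested. The number of the 10 called higher was 4, and 2 to 4 with a library left out (2 without Ctrl replicate 1). It was 6 with median-of-ratios scaling, where 12.6% of all genes were called higher, and 6 with quantile normalization (13.5%). It was 3 with no filter (3.5%) and 3 of 9 at a mean of at least 5 FPKM (16.6%). With no filter, 667 genes were higher and 1095 lower, regulators had 1 lower and nuclear targets 16 higher. The mitochondrial DNA list had 3 higher (10.7%) in the main fit. It had 5 at a mean of at least 5 FPKM (23.8%), 5 with median-of-ratios scaling (17.9%) and 6 with quantile normalization (21.4%). Regulators had 4 higher at a mean of at least 5 FPKM (11.8%, against 16.6% of all genes), and 1 lower without the trend (2.38%, against 12.8%). The cause was not tested.

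With each library left out in turn, the ranges were 358 to 1071 genes higher, 519 to 1434 lower, 0 to 4 higher in the mitochondrial DNA list, 4 to 6 higher and 0 to 2 lower among regulators, and 6 to 27 higher among nuclear targets. A lone library is then assumed to vary like the others. The difference in log2 ratio of *Ppargc1a* to *Ppargc1b* was 0.15 (0.10 to 0.20).

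The labels number the replicates but state no pairing, and the correlation of replicate differences between genotypes was 0.0148 across 12658 genes, so numbers were not taken as pairs. With a replicate block, 1594 genes were higher and 1789 lower, 4 of the 10 genes were higher, the mitochondrial DNA list had 5 higher and nuclear targets 26. About 112 reads behind the lowest *Tfb1m* value limit its precision.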
